A study of Homo sapiens with 3 samples.

Results

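The cells described here are the SOX2-positive cells left in the day 3 library of a 3-day culture of human UCLA1 cells, an established embryonic stem cell line. They were picked on raw UMI counts, UMIs being the molecular tags that count single RNA molecules. A member had at least 1 SOX2 UMI, at least 1 POU5F1 UMI, 0 MESP1 UMIs and 0 TFAP2A UMIs, among day 3 barcodes that passed a floor of 1000 detected genes and a ceiling of 20% mitochondrial UMIs. The rule found 152 members among 7261 kept day 3 cells, which is 2.09% (1.78 to 2.45, exact binomial 95% interval), out of 18830 kept cells in the 3 libraries. All other 7109 day 3 cells were the set they were compared with.

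The cells were grown as GiMO cultures, in which the layer carries a Geltrex overlay, and were taken at days 1, 2 and 3 for droplet single-cell RNA sequencing. Each day is 1 library of the same line, with no other genotype or treatment in the labels. The series title names a BMP4 response, TFAP2A-positive cells and an epithelial to mesenchymal transition as its subject, and the labels name no agent added on any day. With 1 library per day there is no replicate, so no test was possible, and every interval below is an exact 95% interval that covers counting error only.

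SOX2 and POU5F1 (OCT4) are transcription factors that act together with NANOG to hold human embryonic stem cells in a pluripotent state. In the gastrulating embryo, epiblast cells that enter the primitive streak lose SOX2, take up TBXT, EOMES and MIXL1, and leave the epithelium through an epithelial to mesenchymal transition under WNT, BMP and NODAL signals. MESP1 marks nascent mesoderm and TFAP2A marks amnion and surface ectoderm fates, and both are used here to leave out cells on those paths. No lineage record exists in these data, and "residual" is only a name for such cells.

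Depth did not set the members apart. They had a median of 20084.5 UMIs per cell (5826 to 58583) and 5891.5 genes, against 19554 UMIs and 5505 genes in the other day 3 cells, and the median mitochondrial share was 3.52% in the members and 3.56% in the others. The largest member gave 1.76% of the 3323610 UMIs summed over the 152 cells, and 5 members lay above the 95th percentile of day 3 depth. Between libraries 42 barcodes recurred, including the barcode of 1 member.

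SOX2 lies at chr3:181711925-181714436 (plus strand) and POU5F1 at chr6:31164337-31180731 (minus strand) on hg38, in the GENCODE annotation. Both chose the members, so their values are a description. Levels are UMIs summed over the cells of a class and scaled to 1000000 UMIs (CPM). SOX2 was at 134 CPM in the members and 3.78 CPM in the other day 3 cells. Among members 51 had 1 SOX2 UMI, 27 had 2, 32 had 3, and the highest had 15. POU5F1 was at 1034 CPM in the members and 388 CPM in the others, with 2 UMIs in the lowest member and 60 in the highest. POU5F1 has near-identical pseudogenes and SOX2 lies inside SOX2-OT on the same strand, so reads of these copies may be shared.

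A single SOX2 UMI is a thin basis for membership, and free RNA can give such a UMI to any droplet. In cells with at least 3 MESP1 UMIs, a class that should lack SOX2, 3.11% had a SOX2 UMI (2.64 to 3.64) at a median of 21050 UMIs. All members have a SOX2 UMI by the rule, so this share cannot be set against theirs, and how many members hold a SOX2 UMI from free RNA was not tested. A SOX2 UMI was found in 404 day 3 cells in all. Of these, 228 were outside the rule with a MESP1 UMI, at a median of 28344.5 UMIs, and 73 had a TFAP2A UMI, at 33364 UMIs. On the edges of the rule, the 51 members with 1 SOX2 UMI had a median of 18056 UMIs, 728 cells missed it by having 0 SOX2 UMIs (15500.5 UMIs), 2 by having 0 POU5F1 UMIs, 41 by 1 MESP1 UMI and 17 by 1 TFAP2A UMI.

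**Figure D1:**
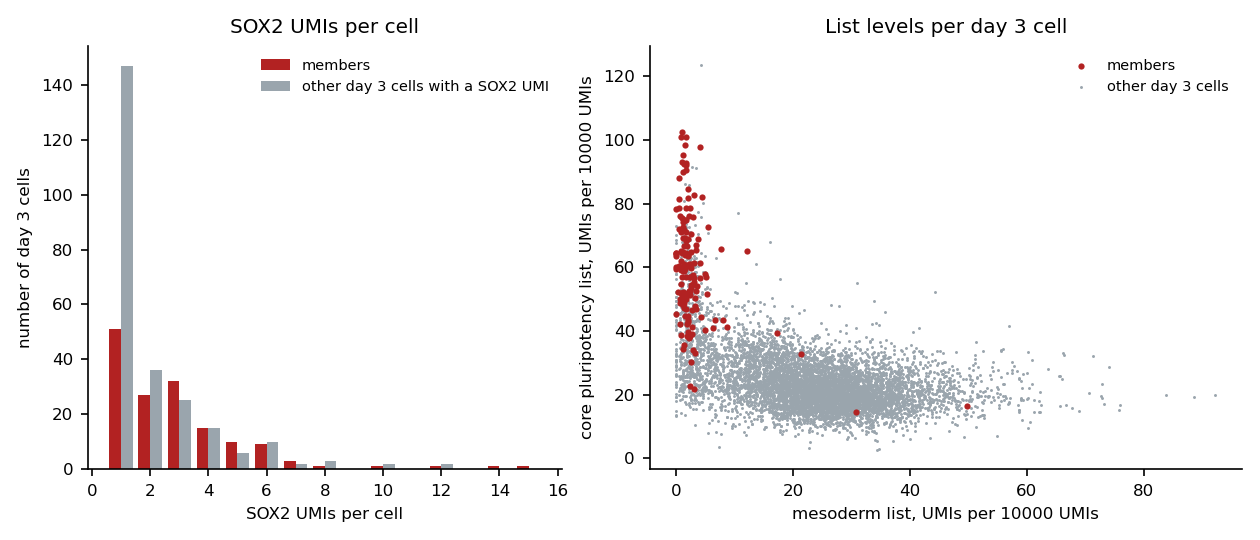
Left, bars give the number of day 3 cells at each SOX2 UMI count, members in red and other day 3 cells with a SOX2 UMI in grey; 51 members sit at 1 UMI and the highest at 15. Right, each point is a day 3 cell, with the summed UMIs of the mesoderm list per 10000 UMIs on the horizontal axis and of the core pluripotency list on the vertical axis; the members lie in the upper left, at medians of 1.69 and 59.3, apart from a few at high mesoderm levels.

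The members sat almost all together when the day 3 cells were clustered without the 4 rule genes. Cluster 4, of 642 cells, held 142 of the 152 members (93.4%, 88.2 to 96.8), and members made up 22.1% of it. Its leading genes included KIAA0825, AP002856.2, LNCPRESS1, ADAMTS16 and TMEM178B, and 38.9% of its cells had a SOX2 UMI. The other 10 members lay in cluster 6 (4 cells), cluster 3 (3 cells), cluster 2 (2 cells) and cluster 7 (1 cell). Cluster 6 is the deepest, with a median of 35598 UMIs, and SOX2 UMIs were seen in 23.4% of its cells. Of the members with 2 or more SOX2 UMIs 96 of 101 were in cluster 4, and of those with 1 SOX2 UMI 46 of 51.

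**Figure D2:**
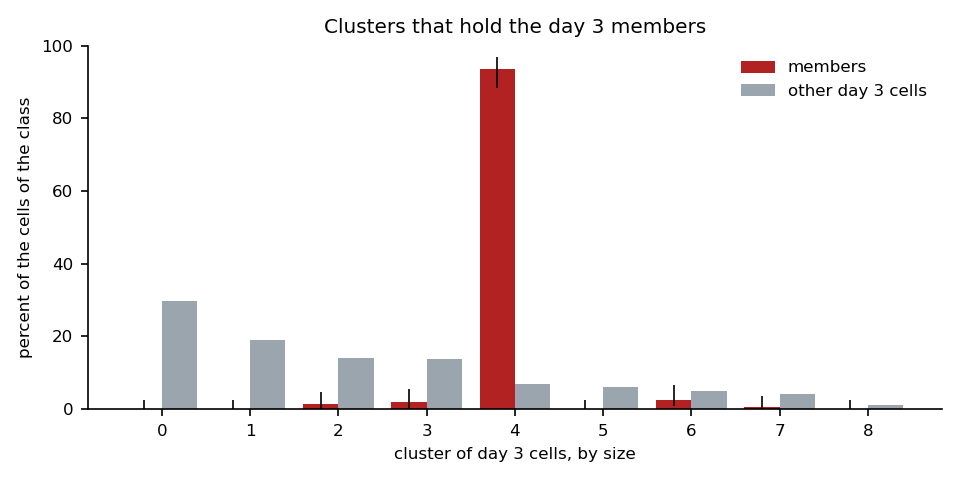
Share of the members (red, with exact binomial 95% intervals) and of the other day 3 cells (grey) in each numbered cluster of the day 3 library, as percent of the cells of that class. Cluster 4 holds 93.4% of the members.

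Genes of the pluripotent state set the members apart from the rest of day 3. A gene was counted from a 2-fold difference in CPM whose interval excludes 1, provided the class with more of it reached 10 CPM. By that rule 908 of 10362 genes were higher in members (8.76%) and 676 were lower (6.52%). Scaling by TMM, which moves the median log2 ratio of all genes to -0.11 from 0.06, gave 712 higher and 832 lower, so that 46.1% rather than 57.3% of the counted genes were higher. These genes come from cells chosen on genes of the same cells, and the counts are descriptive.

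NANOG, the partner of the chosen factors, had 79.7 CPM in the members (70.4 to 89.9), against 9.30 CPM in the other day 3 cells, 8.57-fold higher. A NANOG UMI was found in 119 of the 152 members. High NANOG was not particular to the members. By cluster, NANOG stood at 91.5 CPM in cluster 7, which has 299 cells and 1 member, and at 54.8 CPM in all of cluster 4. POU5F1 was at 798 CPM in cluster 7 and 978 CPM in all of cluster 4. USP44, a deubiquitinase found in embryonic stem cells, reached 96.9 CPM in the members and 6.36 CPM in the others, 15.2-fold higher (13.4 to 17.3). DNMT3B, the de novo DNA methyltransferase of pluripotent cells, was 3.58-fold higher, at 470 CPM in the members and 131 CPM in the others. DPPA4, a chromatin protein of pluripotent cells, was 3.54-fold higher at 435 CPM in the members and 123 CPM in the others.

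Of 20 core pluripotency genes measured, 16 were at least 1.5-fold higher in the members with an interval that excludes 1, and 0 were lower, where the same count took 19.4% of all 14958 genes measured as higher and 11.7% as lower. The median log2 ratio of the list was 1.80, beside 0.06 over all genes. SALL4, LIN28A, LIN28B and ZFP42 were the 4 that did not pass. LIN28A, an RNA-binding protein that blocks let-7 processing, was at 479 CPM in the members and 334 CPM in the others. Cell by cell, the summed list ranged over 14.5 to 102 UMIs per 10000 in members (median 59.3), against a median of 22.3 in the others. The list level of 98.0% of the members lay above that median.

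Long noncoding RNAs of human pluripotent cells had a median log2 ratio of 2.93 between the members and the other day 3 cells. RMST, a noncoding RNA known to bind SOX2, on chromosome 12, had 66.2 CPM in the members and 3.37 CPM in the other day 3 cells, 19.6-fold higher (16.7 to 23.0). LNCPRESS1, which is known to guard the pluripotent state, had 105 CPM in the members and 5.91 CPM in the others, 17.7-fold higher. ESRG, an RNA of HERV-H origin, was 7.61-fold higher at 409 CPM in the members and 53.8 CPM in the others. Of 9 such RNAs, 8 were higher and 1, LINC00458, was lower, at 79.4 CPM in the members and 162 CPM in the others.

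Other genes among the 15 highest by ratio are not known mainly for pluripotency. KIAA0825, a gene known for limb defects, was at 884 CPM in the members and 56.0 CPM in the others, 15.8-fold higher. AP000459.2 (21.0-fold), AC022424.1 (18.4-fold), THBS2, a matrix glycoprotein (16.4-fold), IDO1, the enzyme that opens tryptophan breakdown (15.6-fold), ADAMTS16 (14.4-fold) and GPR160 (13.9-fold) were among them. FOXD3-AS1, transcribed beside FOXD3, was 13.0-fold higher at 134 CPM in the members and 10.3 CPM in the others. FOXD3, a forkhead factor of pluripotent and neural crest cells, was rarer, at 5.42 CPM in the members and 0.133 CPM in the others, with UMIs in 16 members. The labels do not say whether counting used the strand, so reads of this antisense pair cannot be told apart with certainty.

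Most of the epiblast and epithelial genes on the lists were higher in the members than in the other day 3 cells. SFRP2, a secreted WNT modulator, was at 483 CPM in the members and 105 CPM in the others, 4.60-fold higher, and ZIC2, an epiblast zinc finger factor, was 2.36-fold higher. Of 10 primed epiblast genes 7 were higher and 1 was lower. Of 18 epithelial genes measured, 14 were higher and 3 lower (median log2 ratio 1.65). The sum of the list ran the other way, at 1769 CPM in the members and 1901 CPM in the other day 3 cells, and was 3254 CPM in the day 1 cells and 2154 CPM in the day 2 cells of the same rule. GRHL2, a factor that maintains epithelia, was at 94.5 CPM in the members and 21.0 CPM in the others, 4.50-fold higher. ESRP1, the splicing factor of epithelial isoforms, was 4.24-fold higher. The adhesion gene CDH1 (E-cadherin) was 2.22-fold higher, at 68.9 CPM in the members and 31.0 CPM in the others. The 3 lower epithelial genes were the desmosome gene DSP and the keratins KRT8 and KRT19, of which KRT8 was at 247 CPM in the members and 546 CPM in the others.

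Genes of the mesenchymal state were low in the members. Of 14 measured, 12 were lower and 0 higher, with a median log2 ratio of -2.26. VIM, the intermediate filament of mesenchymal cells, was at 101 CPM in the members and 831 CPM in the others, 8.24-fold lower. The cadherin CDH11 was 11.0-fold lower at 53.9 CPM in the members and 591 CPM in the others. CDH2 (N-cadherin) was 2.43-fold lower, at 160 CPM in the members and 389 CPM in the others, and 89.5% of the members had a CDH2 UMI. SNAI1, the repressor of CDH1, was at 7.52 CPM in the members and 51.9 CPM in the others, 6.91-fold lower.

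NODAL, the TGF-beta ligand that patterns the streak, was 5.62-fold higher at 149 CPM in the members and 26.4 CPM in the others, and 86.2% of the members had a UMI of it. FGF8, a streak ligand, was 6.52-fold higher at 16.2 CPM in the members and 2.49 CPM in the others. EOMES, a T-box factor of the streak, stood at 159 CPM in the members and 129 CPM in the others, short of the 1.5-fold limit. MIXL1, a homeobox factor of the streak, had 290 CPM in the members and 356 CPM in the others, also short of it. TBXT (Brachyury) was 1.87-fold lower at 31.6 CPM in the members and 59.1 CPM in the others. In all, 3 of 16 primitive streak genes were higher (FGF4, FGF8, NODAL), a share near the 19.4% of all genes, and 6 were lower (TBXT, FGF17, WNT8A, CER1, LHX1, CDX1), beside 11.7% of all genes. Against only the day 3 cells without MESP1 and TFAP2A UMIs the median log2 ratio of the list turned to 0.42, beside -0.42 against all other day 3 cells, and TBXT turned to 0.12.

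The mesoderm and HOX genes were where the members were lowest. Of 17 mesoderm genes 16 were lower and 0 higher, with a median log2 ratio of -3.23; KDR, a VEGF receptor, was the exception at 58.1 CPM in the members and 70.6 CPM in the others. LHX1, a LIM homeobox factor of nascent mesoderm, was 23.4-fold lower at 28.6 CPM in the members and 670 CPM in the others. HAND1, a bHLH factor of extraembryonic and lateral plate mesoderm, was 11.3-fold lower at 40.3 CPM in the members and 455 CPM in the others. APLNR, the apelin receptor of migrating mesoderm, was 9.90-fold lower at 27.4 CPM in the members and 271 CPM in the others. All 12 HOX genes measured were lower, HOXB6 among them at 6.62 CPM in the members and 112 CPM in the others. The 15 lowest genes by ratio also held GPR55, PLPP4, ISL1, LGR5 (a WNT target receptor, 6.32 CPM in the members and 155 CPM in the others), FOXC1 and MSGN1.

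The mesoderm RNA left in the members was unevenly spread. Per cell, the mesoderm list summed to a median of 1.69 UMIs per 10000 in the members, 0 in the lowest and 49.7 in the highest, against 23.8 in the others. The 10 members outside cluster 4 held much of it: HAND1 was at 298 CPM in these 10 cells and 22.2 CPM in the members of cluster 4, and the myelin gene PMP22 was at 394 CPM in these 10 cells and 4.51 CPM in the members of cluster 4. All 9 HAND2 UMIs of the members came from 1 cell. With the members of cluster 4 alone, an alternative added after the data were seen, the median log2 ratio of the mesoderm list was -4.08. The part of free RNA from the other cells in these low levels was not tested.

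The BMP, WNT and NODAL response lists had median log2 ratios of -0.74, -0.32 and -0.12 between the members and the other day 3 cells. ID1, a target of BMP signalling that blocks bHLH factors, was 2.27-fold higher at 442 CPM in the members and 194 CPM in the others, while 6 of the 11 BMP response genes were lower, among them MSX1 at 14.7 CPM in the members and 214 CPM in the others. Of 12 WNT response genes 4 were lower and 0 higher, and LEF1, a nuclear effector of WNT, was at 42.4 CPM in the members and 113 CPM in the others. Beside these counts stand the 19.4% of all genes higher and 11.7% lower. Of 9 NODAL response genes 3 were higher (NODAL, LEFTY1, TDGF1) and 4 lower, among them LEFTY2 and CER1. LEFTY1, the feedback inhibitor of NODAL, was 4.33-fold higher at 29.5 CPM in the members and 6.81 CPM in the others. TDGF1, the NODAL co-receptor, was at 324 CPM in the members and 119 CPM in the others. Of the 15 G2/M genes 0 were higher or lower, and of the 15 S phase genes 1 was higher (MCM5) and 1 lower (TYMS).

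Markers of other fates varied in level. In the members the 5 neuromesodermal markers, TBXT among them, summed to 77.0 CPM, against 97.9 CPM in the other day 3 cells. The 5 endoderm markers summed to 65.3 CPM in the members, 138 CPM in the others and 13.8 CPM in the day 2 cells of the rule. CER1 alone gave 56.6 CPM of that sum in the members, with 53 UMIs in the highest cell. In the members SOX1 and SIX3 of neural ectoderm, CGA, GCM1 and ELF5 of trophoblast, PECAM1 and TAL1 of blood and endothelium, WNT6 of amnion and HES3 of neuromesodermal cells had 0 UMIs. The 6 neural ectoderm markers summed to 3.01 CPM in the members and 0.673 CPM in the others, and the 4 trophoblast markers to 1.5 CPM in the members and 2.04 CPM in the others. Of 11 amnion genes measured 9 were lower and 0 higher; the choice of cells without TFAP2A fixes part of that. For germ cell genes, 6 of 10 were higher and 4 lower. The higher were TFAP2C, KIT, PDPN, SOX15, KLF4 and UTF1, and the lower NANOS3, SOX17, PRDM1 and ARID5B. UTF1 is also on the core pluripotency list, and KLF4 and TFAP2C are on the naive pluripotency list. Beside the amnion and germ cell counts stand the 19.4% of all genes higher and 11.7% lower. The germ cell median log2 ratio of 0.66 turned to -1.19 against only the cells without MESP1 and TFAP2A UMIs.

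Other day 3 cells without MESP1 and TFAP2A are the nearest by the rule, and the 907 of them had a median of 14210 UMIs. Against them 738 of 10507 genes were higher (7.02%) and 903 lower (8.59%) in the members, so that 45.0% of the counted genes were higher, beside 57.3% against all other day 3 cells. Of the core pluripotency genes 16 of 20 were higher and 0 lower, of the epithelial genes 11 of 18 were higher and 4 lower, and of the mesoderm genes 16 of 17 were lower and 0 higher, where the list rule took 16.1% of all genes as higher and 14.4% as lower. Streak genes were higher in 7 of 16 and lower in 3, with MIXL1 at 290 CPM in the members and 149 CPM in these cells, and TBXT at 31.6 CPM in the members and 29.1 CPM in these cells. Of these cells, 202 had a TBXT UMI. Set against those 202 cells, the members had 425 of 10420 genes higher (4.08%) and 683 lower (6.55%). Of the core pluripotency genes 13 of 20 were higher in the members and 0 lower, 15 of 17 mesoderm genes were lower and 0 higher, and epithelial genes were split, with 3 of 18 higher and 3 lower; the list rule took 9.42% of all genes as higher and 11.2% as lower. Against the 762 day 3 cells with a TFAP2A UMI, 496 of 10335 genes were higher (4.8%) and 571 lower (5.52%) in the members. There 15 of 20 core pluripotency genes were higher and 0 lower, 12 of 14 mesenchymal genes were lower and 0 higher, and 8 of 18 epithelial genes were higher and 6 lower, where the list rule took 13.2% of all genes as higher and 10.3% as lower.

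Within cluster 4 fewer genes differed. Between its 142 members and its other 500 cells, 94 of 10104 genes were higher (0.93%) and 140 lower (1.39%) in the members. RMST was 3.02-fold higher (2.5 to 3.65), at 68.6 CPM in the members and 22.7 CPM in the non-members of the cluster. USP44 was 2.92-fold higher, at 103 CPM in the members and 35.2 CPM in the non-members. TBXT was 4.06-fold lower, at 30.6 CPM in the members and 124 CPM in the non-members, and MIXL1 2.00-fold lower, at 291 CPM in the members and 581 CPM in the non-members. Of 20 core pluripotency genes 7 were higher and 0 lower, and of 15 streak genes 2 were higher and 9 lower, where the list rule took 5.04% and 4.41% of all genes. CDH1 was at 72.5 CPM in the members and 82.2 CPM in the non-members, and NODAL at 152 CPM in the members and 165 CPM in the non-members. Cells with MESP1 or TFAP2A UMIs can only be among the non-members, so the rule itself enters this contrast; 392 of the 500 had 0 SOX2 UMIs.

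The same rule picked 2340 of 3677 cells at day 1 (63.6%, 62.1 to 65.2), 2622 of 7892 at day 2 (33.2%, 32.2 to 34.3) and the 152 at day 3. The median depths of the picked cells were 40462.5, 17009.5 and 20084.5 UMIs at days 1, 2 and 3. With every cell thinned to 5000 UMIs the shares were 50.8% (49.2 to 52.5), 23.1% (22.2 to 24.1) and 1.65% (1.37 to 1.98), in which 34, 484 and 129 shallower cells were left out. Day, library and depth coincide, and each day is 1 library, so they cannot be told apart.

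**Figure D3:**
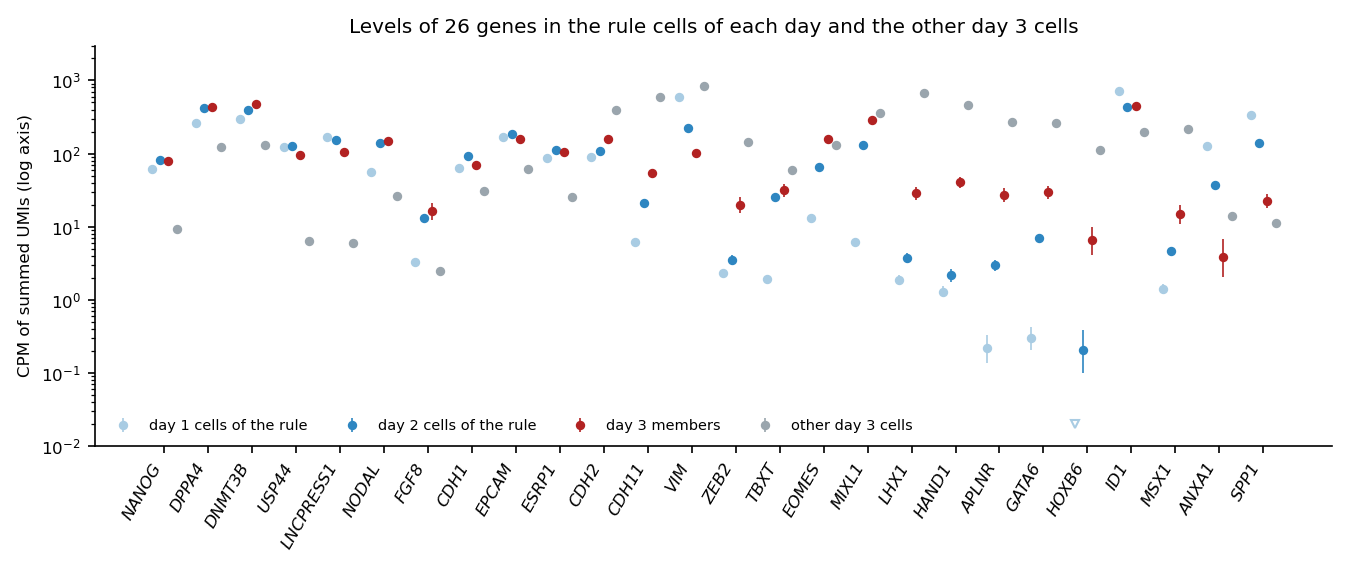
Level of 26 genes (CPM, log axis) from UMIs summed over each class, with exact Poisson 95% intervals, in the day 1 and day 2 cells of the rule (blue), the day 3 members (red) and the other day 3 cells (grey); an open triangle at the bottom marks a gene with 0 UMIs. NANOG stood at 60.9, 81.4, 79.7 and 9.30 CPM in these classes, and HAND1 at 1.30, 2.17, 40.3 and 455 CPM.

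Set against day 2 cells of the same rule, 118 of 9956 genes were higher (1.19%) and 41 lower (0.412%) in the day 3 members, and TMM scaling gave 84 higher and 80 lower, with 51.2% rather than 74.2% of the counted genes higher. With every cell thinned to 5000 UMIs and the rule applied again to the thinned counts, 392 genes were higher and 116 lower. The cells changed too. The thinned rule picked 118 day 3 cells, while 52.6% of the 152 members kept a SOX2 UMI, so the 118 include cells that are not members. Of the genes counted, 77 higher and 23 lower were shared with the main setting. The number of differing genes thus depends on the setting. Of the 20 core pluripotency genes 0 were higher and 1, UTF1, was lower, where the list rule took 8.29% and 2.31% of all 14664 genes. NANOG was at 79.7 CPM in the members and 81.4 CPM in the day 2 cells, DPPA4 at 435 CPM in the members and 415 CPM in the day 2 cells, and the noncoding RNA RMST at 66.2 CPM in the members and 88.0 CPM in the day 2 cells. UTF1, a chromatin factor of embryonic stem cells, was at 12.0 CPM in the members and 28.5 CPM in the day 2 cells, and at 99.2 CPM in the day 1 cells.

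Several lists were higher in the day 3 members than in the day 2 cells. Of 15 streak genes measured 10 were higher and 0 lower, and of 15 mesoderm genes 14 were higher and 0 lower. All 6 definitive endoderm genes measured were higher (median log2 ratio 2.11), as were 7 of 12 WNT response genes with 0 lower (0.62) and 6 of 13 mesenchymal genes with 2 lower (0.58). The list rule took 8.29% of all genes as higher and 2.31% as lower. A list gene was measured from 2 CPM in either class. One under 2 CPM at day 2 was measured only through the members, so its direction was fixed in advance. FOXA2 UMIs were in 18 of the 2622 day 2 cells and 5 members, and SOX17 UMIs in 30 and 7. EOMES was 2.40-fold higher at 159 CPM in the members and 66.3 CPM in the day 2 cells, and MIXL1 2.21-fold higher at 290 CPM in the members and 131 CPM in the day 2 cells. The ranking by ratio took genes seen in at least 10% of the members, with at most 10% of the members' UMIs of the gene from 1 cell. Within that ranking APLNR came first, at 27.4 CPM in the members and 2.96 CPM in the day 2 cells, 9.26-fold higher (7.04 to 12.1). TBXT was at 31.6 CPM in the members and 25.7 CPM in the day 2 cells, a ratio of 1.23 whose interval reaches 0.998. The mesoderm list summed to 294 CPM in the members and 92.2 CPM in the day 2 cells, which is low beside the 2334 CPM of the other day 3 cells for the 17 genes measured there. In the members of cluster 4 alone the median log2 ratio of the mesoderm list against day 2 was 1.36, beside 2.46 with all members, and that of the streak list was 1.21, beside 1.26.

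The 7 HOX genes measured summed to 26.2 CPM in the members and 0.646 CPM in the day 2 cells. As that day 2 sum is under the 2 CPM limit, each of the 7 was measured only through the members. That all 7 were higher than at day 2 was therefore fixed in advance by the limit. HOXB6 UMIs were in 13 members, with 9 UMIs in the highest cell, and with the members of cluster 4 alone 2 HOX genes reached the level needed to be measured. CALCR, the calcitonin receptor, was 3.6-fold higher than at day 2, at 49.9 CPM in the members and 13.9 CPM in the day 2 cells. PLCG2, a phospholipase, was 4.00-fold higher. HIST1H4F, HIST1H4I and HIST1H4E, histone H4 genes with near-identical copies, were 4.52-fold, 4.25-fold and 3.58-fold higher.

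Genes of the earlier culture were lower than at day 2. ANXA1, a phospholipid-binding protein, was 9.47-fold lower at 3.91 CPM in the members and 37.0 CPM in the day 2 cells. SPP1 (osteopontin) was 6.10-fold lower at 22.6 CPM in the members and 138 CPM in the day 2 cells. Of 15 genes high at day 1, a list taken from these same libraries, 12 were lower than at day 2 and 0 higher, so its direction is not independent evidence. Against the other day 3 cells 10 of the 15 were higher, KIAA0825 among them, and 2 lower (median log2 ratio 1.86). There 19.4% of all genes were higher and 11.7% lower. VIM was 2.20-fold lower at 101 CPM in the members and 221 CPM in the day 2 cells, while CDH11 was 2.59-fold higher at 53.9 CPM in the members and 20.8 CPM in the day 2 cells.

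**Figure D4:**
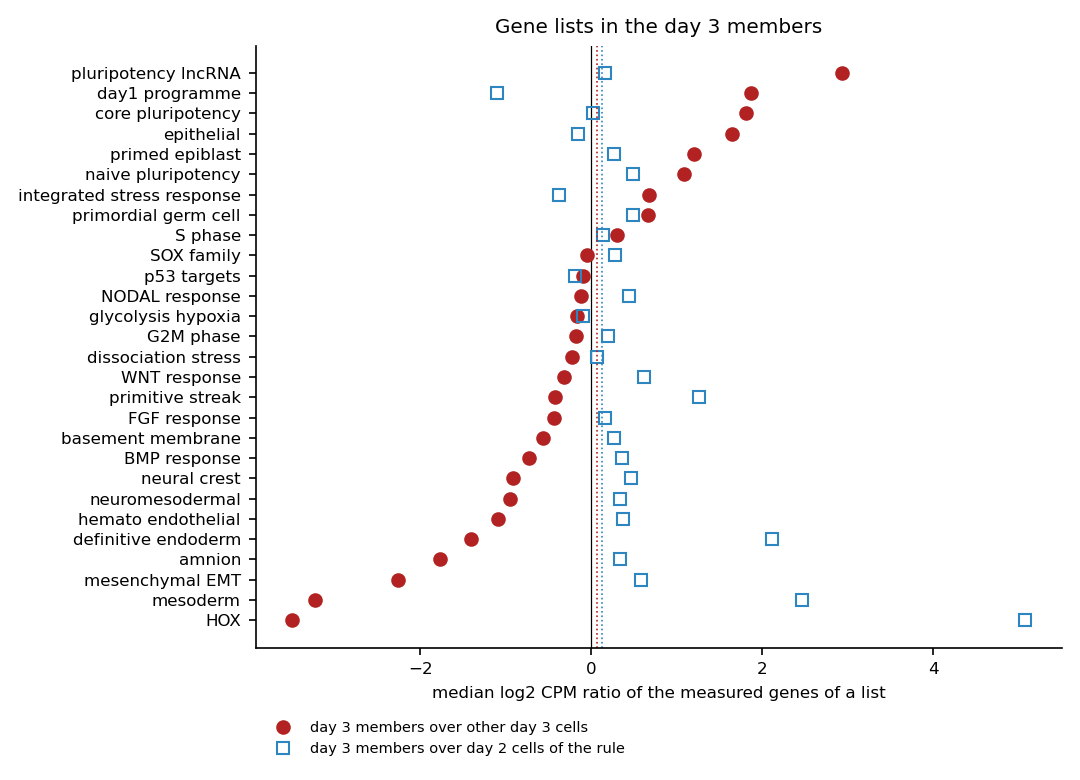
Median log2 CPM ratio of the measured genes of each list with at least 4 measured, for day 3 members over the other day 3 cells (red circles) and over the day 2 cells of the same rule (open blue squares); dotted lines give the median of all genes, 0.06 and 0.12. The core pluripotency list stands at 1.80 and 0.02, the mesoderm list at -3.23 and 2.46.

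Against the day 1 cells of the rule, 1065 of 9996 genes were higher (10.7%) and 218 lower (2.18%) in the day 3 members. This count depends on the scaling, as the median log2 ratio of all genes was 0.39 and moved to -0.14 under TMM, which gave 278 higher and 1056 lower, so that 20.8% rather than 83.0% of the counted genes were higher. All 15 streak genes measured were higher (median log2 ratio 3.59), where the list rule took 33.1% of all genes as higher and 6.94% as lower. A list gene under 2 CPM at day 1 was measured only through the members, so its direction was fixed in advance. FOXA2, 1 of the 15, had UMIs in 4 of the 2340 day 1 cells and in 5 members. MIXL1 was 47.3-fold higher at 290 CPM in the members and 6.14 CPM in the day 1 cells, and APLNR was at 27.4 CPM in the members and 0.218 CPM in the day 1 cells. ANXA1 was 32.7-fold lower at 3.91 CPM in the members and 128 CPM in the day 1 cells. The core pluripotency list had a median log2 ratio of 0.34, which TMM scaling turned to -0.17, so no direction is given for it.

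The members also differed among themselves with their SOX2 count. The 101 with 2 or more SOX2 UMIs had 156 of 10360 genes higher (1.51%) and 202 lower (1.95%) than the 51 with 1. RMST was 2.72-fold higher (1.84 to 4.14), at 81.7 CPM in the members with 2 or more and 30.1 CPM in those with 1. USP44 was 1.70-fold higher, at 110 CPM in the members with 2 or more and 65.2 CPM in those with 1. Of the 20 core pluripotency genes 5 were higher and 0 lower, and of 16 mesoderm genes 8 were lower and 0 higher, where the list rule took 2.66% and 2.80% of all genes. The mesoderm difference rests on cells outside cluster 4, which hold 5 of the 101 members with 2 or more SOX2 UMIs and 5 of the 51 with 1. Within cluster 4, a comparison added after the data were seen, 154 of 10366 genes were higher (1.49%) and 182 lower (1.76%) in the members with 2 or more. There 2 of 15 mesoderm genes were lower and 0 higher, with a median log2 ratio of -0.088 beside -1.04 with all members, and 3 of 20 core pluripotency genes were higher and 0 lower, where the list rule took 2.46% and 2.7% of all genes. HAND1 within cluster 4 was at 22.1 CPM in the members with 2 or more and 22.4 CPM in those with 1, and RMST at 83.1 CPM in the members with 2 or more and 32.5 CPM in those with 1. With all members HAND1 was at 27.9 CPM in the members with 2 or more and 69.2 CPM in those with 1, and MIXL1 at 257 CPM in the members with 2 or more and 367 CPM in those with 1. NANOG was at 82.5 CPM in the members with 2 or more and 73.2 CPM in those with 1, a ratio of 1.13 (0.857 to 1.5). The median core pluripotency level per cell was 61.4 UMIs per 10000 in the members with 2 or more and 51.1 in those with 1. The split is by the count of a gene the rule used, and the deeper cells carry more UMIs of it, the median depth being 22185 UMIs in the members with 2 or more and 18056 UMIs in those with 1.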

How the data were processed

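UCLA1 cells were sampled at days 1, 2 and 3, 1 library each. The authors deposited raw UMI counts per gene and barcode (36601 genes), and the submitters' processing notes name Cell Ranger 5.0.1 and hg38; no normalization was applied. Barcodes under 1000 genes or over 20% mitochondrial UMIs were left out. UMIs were summed over cells and scaled to CPM; levels have exact Poisson intervals and ratios conditional binomial ones, at 95%. A gene with 0 UMIs in a class was set to 3 counts. Genes were counted from 10 CPM and a ratio of 2, list genes from 2 CPM and a ratio of 1.5. Named genes are the 15 highest and lowest counted genes by ratio (8 between days), list genes and leading genes of clusters. The highest and lowest had a UMI in at least 10% of the cells of the higher class. At most 10% of that class's UMIs of such a gene came from 1 cell. Leiden clusters (scanpy 1.11.5, 2000 variable genes, 30 components, resolution 0.5) left out the 4 rule genes. Doublets were kept: the automatic Scrublet threshold marked 1 of the 7261 day 3 cells and so did not work, and removing the 457 highest scores was an alternative. TMM factors came from edgeR 4.0.16. The comparison was tested on simulated Poisson counts of class sums without variation between cells, which cannot show how the intervals hold in these data. Some genes that the naming rule picked are not reported here. The members and lists were chosen with earlier results of these data known. Positions are from GENCODE 44.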

Additional observations from a re-analysis of the deposited data

Results flagged for a closer look

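Some genes that stood apart between the cells of the rule and the other cells of the same library did so in opposite directions on different days. These differences were not tested, since each day is 1 library. The other cells also changed in make-up. A TFAP2A UMI was in 82.9% of them at day 1, 28.1% at day 2 and 10.7% at day 3. A MESP1 UMI was in 6.88%, 43.5% and 84.6% of them. Whether a turn lies in the cells of the rule or in the other cells was not tested. Against only the day 3 cells without MESP1 and TFAP2A UMIs, CER1 had a log2 ratio of 1.07. FGF4 had a log2 ratio of 1.53 at day 3 and -1.78 at day 2. FGF8 had 2.70 at day 3 and -0.69 at day 1, and NKX1-2, a factor of neuromesodermal cells, had 1.79 at day 3 and -0.82 at day 1. CALCR had 1.54 at day 3 and -1.18 at day 2, and LINC01846 had 1.70 at day 3 and -1.01 at day 2. AP000676.5 had 0.65 at day 3, -1.27 at day 2 and -0.67 at day 1. In the opposite sense, CER1, an inhibitor of NODAL and BMP, had -1.04 at day 3 and 0.80 at day 1, and LEFTY2 had -0.93 at day 3 and 0.85 at day 1. PDGFRA, a receptor of mesoderm cells, had -3.23 at day 3 and 0.67 at day 1. SPRY1 had -0.69 at day 3 and 0.78 at day 2, and AFP had -1.47 at day 3 and 1.21 at day 2.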

How the results depend on the processing

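Requiring 2 SOX2 UMIs left 101 members instead of 152. Against the other day 3 cells, the counts of higher and lower genes moved by over 1.5 times only in the higher count with a minimum of 20 CPM, to 575. Against day 2 the counts were 118 higher and 41 lower, and the lower count became 65 with at least 2 SOX2 UMIs and 80 under both TMM and median-of-ratios scaling. Thinning to 5000 UMIs, with the rule applied again to the thinned counts, gave 392 higher and 116 lower. A minimum of 5 CPM gave 252 and 91, and a minimum of 20 CPM 63 and 25. Against day 1 the counts of 1065 higher and 218 lower became 278 and 1056 under TMM, 287 and 1018 under median-of-ratios scaling, and 679 higher with a minimum of 20 CPM. The cause was not tested beyond the shift of the all-gene median under each scaling.

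Of 1081 list medians under the alternatives, 12 turned their direction, as did 10 of 2620 values of single genes. Against MESP1-negative and TFAP2A-negative cells, the naive pluripotency median log2 ratio was -0.90, the germ cell median -1.19 and the streak median 0.42, with SFRP1 at -0.012, TFCP2L1 at -0.50, TFAP2C at -1.30, TBXT at 0.12, FGF17 at 0.49, CER1 at 1.07, KIT at -0.40, PDPN at -1.09 and IER3 at 0.14. Against day 1, TMM scaling gave -0.17 for core pluripotency, -0.19 for S phase and -0.18 for G2/M, and median-of-ratios scaling gave -0.15, -0.18 and -0.16. Thinning, with the rule applied again, gave 0.84 for FGF17 and, for neural crest against day 1, -0.22. With a list minimum of 10 CPM the naive median was -0.29 and the germ cell median -0.15. No paired analysis was possible because each day is 1 library and the groups share no replicate. Counts of 1 to 3 UMIs in the members limit GPR55, PLPP4 and MSGN1, whose ratios carry wide intervals. ISL1 had 4 UMIs and FOXC1 6 in the members.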

Other observations

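Of 10 integrated stress response genes 4 were higher and 0 lower in the members than in the other day 3 cells (median log2 ratio 0.68). Among all genes the shares were 19.4% higher and 11.7% lower. The 4 were PSAT1, SLC7A11, DDIT4 and CHAC1, with DDIT4 and CHAC1 at lower levels. PSAT1, a serine synthesis enzyme, was at 200 CPM in the members and 112 CPM in the others. SLC7A11, a cystine transporter, was at 58.7 CPM in the members and 24.1 CPM in the others. Against the day 2 cells of the rule 0 of the 10 genes were higher and 3 lower, beside 8.29% and 2.31% of all genes. PSAT1 was among the lower, at 200 CPM in the members and 309 CPM in the day 2 cells. Among other SOX genes, SOX4 was at 561 CPM in the members and 260 CPM in the others, and SOX5 at 71.0 CPM in the members and 154 CPM in the others. The immediate early gene IER2 was at 141 CPM in the members and 61.3 CPM in the others, and FOS at 21.4 CPM in the members and 7.76 CPM in the others. Of 10 dissociation genes measured, IER2 and FOS were the 2 higher and 4 were lower, beside 19.4% and 11.7% of all genes.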
